A study of Rattus norvegicus with 2 samples.

Results

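Tubular injury marker genes are genes whose RNA becomes more abundant in kidney tubule cells that are damaged, dedifferentiated or repairing. The 10 genes described here are Havcr1, Lcn2, Spp1, Clu, Vcam1, Cd44, Sox9, Sox4, Prom1 and Itgb6. They were taken by name, with earlier results of these data known. Their values are those of every spot that is not a control and whose RefSeq accession maps to one of them. Of the 10 genes, 8 had a probe under this rule and all 8 were measured on both arrays, out of 10480 measured genes among 13435 named genes. Sox9 and Sox4, transcription factors of tubule development and repair, had no probe through an accession and are not analysed here.

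The RNA came from whole kidneys of female PCK rats, which carry a mutation in Pkhd1, the gene of autosomal recessive polycystic kidney disease, and develop cystic kidneys. The treated rats were gavaged each day with 10 mg/kg of pioglitazone, a drug that activates PPAR-gamma, between weeks 4 and 20 of age. The control rats received the vehicle, 0.5% DMSO, on the same schedule. Both groups carry the disease mutation, both are female, and normal +/+ rats are not analysed here. Each group is 1 array of pooled RNA, labelled with Cy3, from 5 females by the design text and 3 rats by the labelling text. With 1 array per group no difference has a replicate check and no p-value is given. The number of arrays limits the precision.

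Values are processed spot intensity on a linear scale, and differences are on the log2 scale, pioglitazone minus vehicle, after each array was scaled to its 75th percentile. That scaling removed a shift of 0.08 between the arrays. Each difference has a technical error, made from the scanner software's errors of the pair of spots. It was 0.20 for each measured gene of this set and holds no spread between animals. A gene is called higher or lower here when it differs at least 1.5-fold and by more than 2 technical errors. Both arrays lay on the same slide and were read in the same scan. The kidney marker Umod, which encodes uromodulin of the thick ascending limb, had 220000 on the pioglitazone array and 195000 on the vehicle array.

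Injured proximal tubule cells place kidney injury molecule 1, the product of Havcr1, on their luminal surface, where it binds phosphatidylserine on dying cells and lets the epithelium take them up. They and distal tubule cells also release small soluble proteins that reach the urine. Cells that do not complete repair keep adhesion molecules and a dedifferentiated state, and in cystic kidneys the cyst lining shares several of these features. RNA of a whole kidney cannot tell fewer cells that make a transcript from less transcript per cell.

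The injury markers were mostly lower in the pioglitazone pool, by small amounts. The median of the 8 differences was -0.34, against 0.03 over all 10480 measured genes. Of the 8 genes, 7 had a difference below 0, where 43.8% of all measured genes did. One gene, Havcr1, was called lower and 0 were called higher, where 1.76% of all measured genes were called lower and 0.754% higher. Of the set, 5 genes lay between -0.60 and -0.33, and 3 lay within 0.11 of 0.

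**Figure D1:**
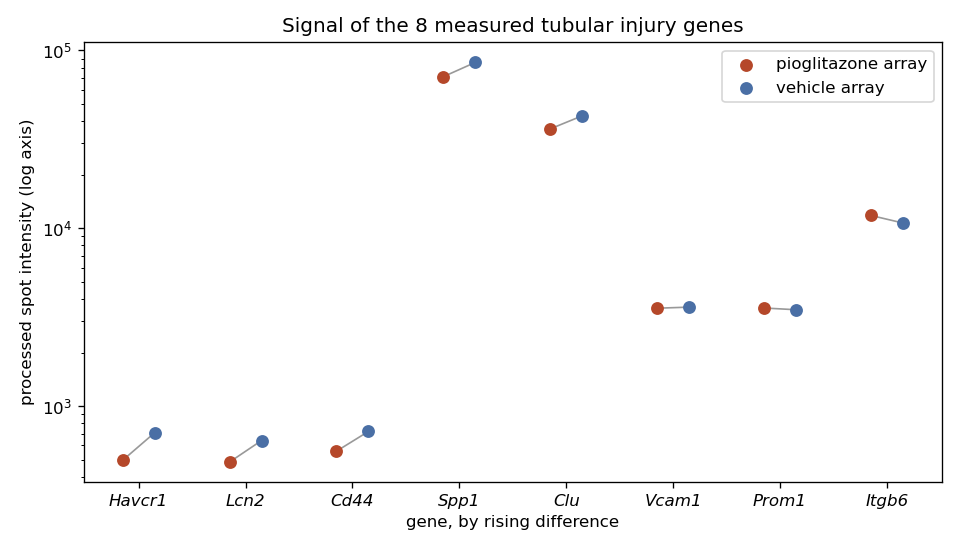
Processed spot intensity (log axis) of the 8 measured injury genes on the pioglitazone array (left point of each pair) and the vehicle array (right point), with genes ordered by rising difference. Each point is 1 spot, or the mean of 10 spots for Spp1. The pioglitazone point lies below the vehicle point for Havcr1, Lcn2, Cd44, Spp1 and Clu, and the points of Vcam1, Prom1 and Itgb6 lie close together.

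Havcr1 had the largest difference of the set. Its spot gave 495 on the pioglitazone array and 708 on the vehicle array, a difference of -0.60 with a technical error of 0.20 (0.66-fold). The pioglitazone spot was the dimmer one before any processing too: its median pixel signal was 485 over a local background of 15, against 706 over 20.5 on the vehicle array. Of all measured genes, 180 (1.72%) had a difference at or below that of Havcr1, and of the 7384 genes with a signal of at least 100 on both arrays 46 (0.623%) did. The call rested on a narrow margin, since 1.5-fold is 0.585 on the log2 scale. With each array scaled to its median the difference was -0.54, and in the unscaled signals it was -0.52, both short of the limit.

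Lcn2 encodes neutrophil gelatinase-associated lipocalin, which binds bacterial siderophores and is released into urine by stressed distal tubules. It had 484 on the pioglitazone array and 640 on the vehicle array. The difference of -0.49 (0.714-fold) exceeded 2 technical errors (0.41) but not 1.5-fold, and 3.16% of measured genes lay at or below it. In the unscaled signals it was -0.40, within 2 technical errors. Normexp is another background correction, run here without the software's removal of spatial trends (detrending) and with an offset of 50 added. With normexp the Lcn2 difference was -0.38, also within 2 technical errors, and with only the detrending left out it was -0.42. Neutrophils also store this protein. Of 12 neutrophil marker genes 9 had a probe and 3 were measured: S100a8 at -0.45 (29.9 on the pioglitazone array and 38.6 on the vehicle array), S100a9 at -0.06 and Prtn3 at 0.04. Elane, Camp, Cxcr2 and Mmp8 were not well above background on either array, and Ngp and Csf3r were well above it on the pioglitazone array alone. The summed unscaled signal of the 3 measured markers was 149.4 on the pioglitazone array and 151.1 on the vehicle array. Over all measured genes that sum was 33561972.4 on the pioglitazone array and 30746859.4 on the vehicle array.

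Spp1 encodes osteopontin, a secreted phosphoprotein of the loop of Henle, collecting duct and injured tubules that binds integrins and CD44. Its probe was printed 10 times on each array, so spot noise could be read directly. The 10 spots gave 67000 to 74800 on the pioglitazone array, with a median of 71450, and 80000 to 92200 on the vehicle array, with a median of 85500. The spot ranges did not overlap. At the same grid position the difference lay between -0.46 and -0.26, with a mean of -0.35 and an SD of 0.06 over 10 positions. These are repeated spots of 1 labelled pool and say nothing of the spread between rats. The coefficient of variation among spots was 3.25% on the pioglitazone array and 4.94% on the vehicle array. The mean difference was within 2 technical errors as the software gives them, 0.41 here. That error is not reduced for the number of spots and was larger than the SD of 0.06 seen among positions. Over 203 probes with 10 spots all well above background, the median of such SDs was 0.07, with a 95th percentile of 0.25.

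**Figure D2:**
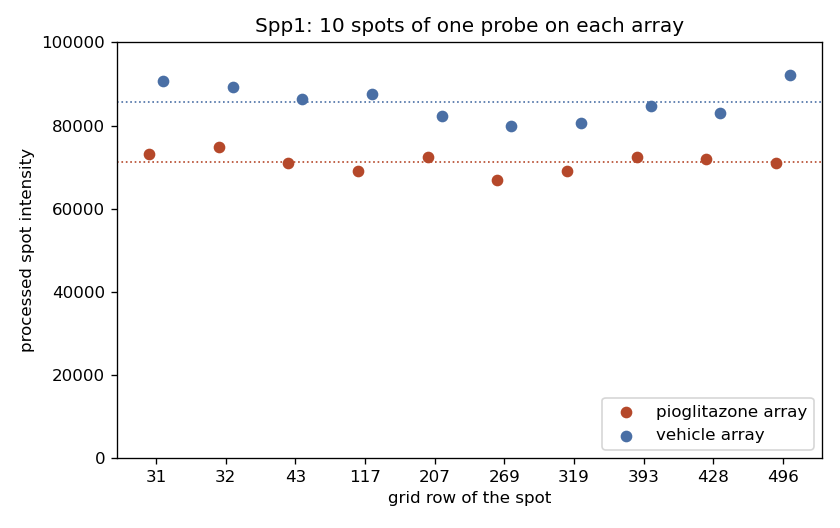
Processed spot intensity of the 10 Spp1 spots on the pioglitazone array and the vehicle array, ordered by the grid row in which they were printed; dotted lines are the means, 71170 on the pioglitazone array and 85660 on the vehicle array. Every pioglitazone spot lies below every vehicle spot, at all 10 positions.

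Clu encodes clusterin, a secreted chaperone that tubules make when stressed. It had 36200 on the pioglitazone array and 42900 on the vehicle array, a difference of -0.33 (0.797-fold) within 2 technical errors. Of all measured genes 7.75% lay at or below it.

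Of the adhesion molecules, Cd44 was at -0.45, Vcam1 at -0.10 and Itgb6 at 0.06. CD44 is the cell surface receptor for hyaluronan and a second receptor for osteopontin. Its brighter probe gave 557 on the pioglitazone array and 720 on the vehicle array, a difference of -0.45 (0.731-fold) that exceeded 2 technical errors. It was within them with median scaling (-0.40), in the unscaled signals (-0.37) and with normexp (-0.40). The other Cd44 probe gave 6.14 on the pioglitazone array and 5.79 on the vehicle array and was not well above background on either. With the 75th percentile scaling, Havcr1, Lcn2 and Cd44 were the 3 genes of the set past 2 technical errors, where 3.85% of all measured genes were lower by that much. Havcr1 and Lcn2 were past them with median scaling, and Havcr1 alone in the unscaled signals and with normexp.

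VCAM1, the ligand of the leukocyte integrin alpha4 beta1 and a marker of proximal tubule cells that fail to repair, showed little difference. Its spot gave 3550 on the pioglitazone array and 3600 on the vehicle array, a difference of -0.10, within 2 technical errors. Endothelium also carries this protein, and of 10 endothelial markers 8 were measured, with a median of 0.01 and 4 of them below 0. Cdh5 was at 0.37, Plvap at -0.23 and Kdr at 0.21, and 0 of the 8 were called.

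Itgb6 encodes the beta subunit of integrin alphaV beta6, an epithelial receptor that activates latent TGF-beta. It had 11800 on the pioglitazone array and 10700 on the vehicle array, a difference of 0.06, the only value above 0 in the set. Without the software's detrending, and with normexp background correction, it was at -0.03 and -0.01, so its sign depended on the processing.

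Prom1 encodes prominin-1, or CD133, a membrane protein of cell protrusions that marks scattered dedifferentiated tubule cells. Its brighter probe gave 3560 on the pioglitazone array and 3480 on the vehicle array, a scaled difference of -0.05. The other Prom1 probe gave 101 on the pioglitazone array and 106 on the vehicle array, a difference of -0.15. Both differences were within 2 technical errors, and the sign of the brighter probe turned to 0.005 with median scaling and 0.03 in the unscaled signals.

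**Figure D3:**
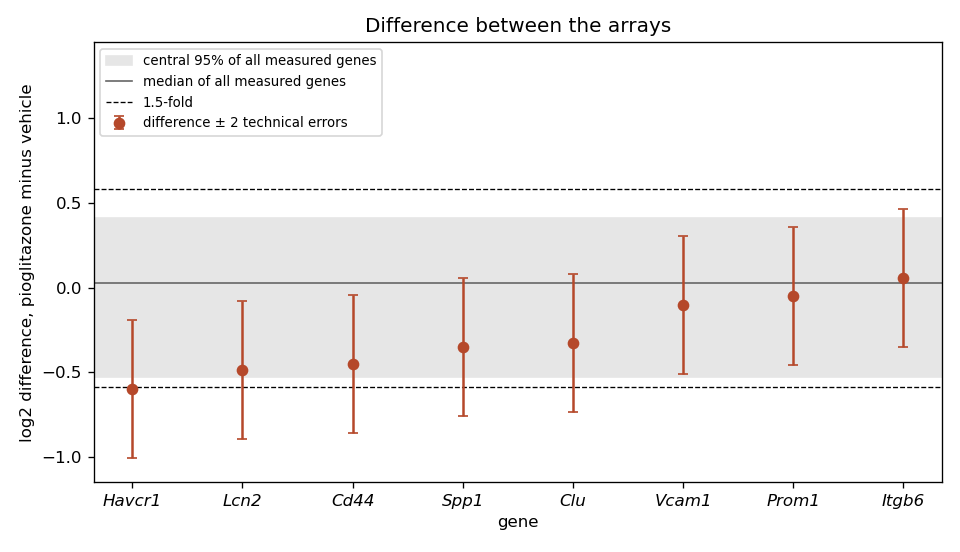
Difference of each measured injury gene on the log2 scale, pioglitazone minus vehicle, with bars of 2 technical errors; the grey band is the central 95% of all measured genes (-0.53 to 0.41), the solid line is their median and the dashed lines mark 1.5-fold. Havcr1 is the only point past a dashed line, and the bars of Havcr1, Lcn2 and Cd44 stay below 0.

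In the order of these differences each gene lay close to its neighbours. The widest step, between Clu and Vcam1, was 0.22, where 2 technical errors of such a step were 0.58. The ends of the order, Havcr1 and Itgb6, were 0.66 apart, more than 2 technical errors. Levels of different genes were not compared, since each probe has its own brightness. Relative to the median of all measured genes, Havcr1 was at -0.63, Lcn2 at -0.51, Cd44 at -0.48, Spp1 at -0.38 and Clu at -0.35. These 5 genes and Vcam1 were below 0 under all 11 alternative settings that give a difference, Vcam1 between -0.14 and -0.02. Several of those settings could not change these genes, which have no flagged spot and 1 measured probe each.

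**Figure D4:**
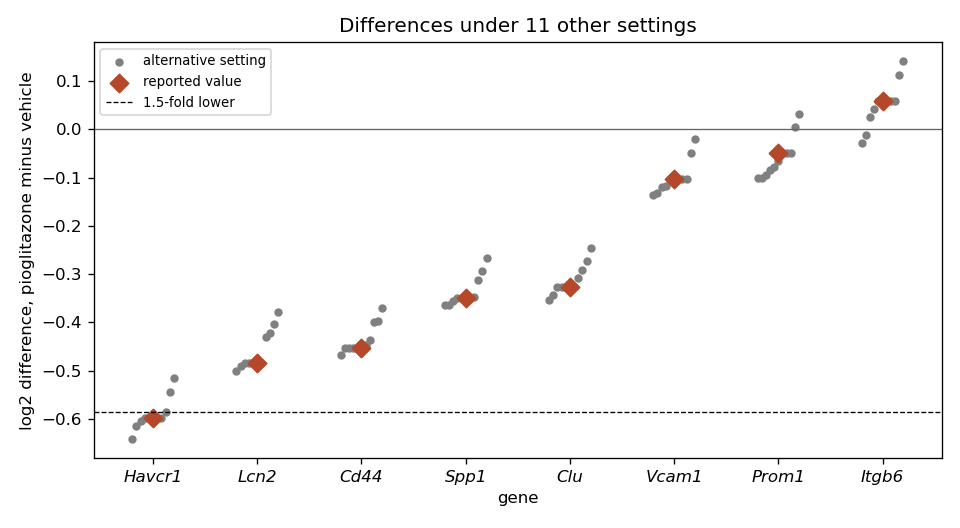
Difference of each measured injury gene on the log2 scale under the reported setting (diamonds) and 11 alternative settings (grey points); the dashed line marks 1.5-fold lower. Havcr1 ranges between -0.64 and -0.52 around the dashed line, and Prom1 and Itgb6 are the genes with points on both sides of 0.

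The regions just upstream of the genes are given to show what sequence the markers carry, for Havcr1, Lcn2, Cd44 and Vcam1. Each window runs from 250 bases before to 50 bases after the annotated start, from RefSeq on GRCr8. Windows were found for 7 of the 10 genes, not for Clu, Sox9 or Sox4. Both strands were searched for the NF-kB motif, the AP-1 motif TGANTCA, the STAT motif TTCNNNGAA, the nuclear receptor half-site AGGTCA, the GC box GGGCGG, the TATA motif TATAAA and the SOX motif AACAAT. Capitals mark matches. The windows lie on the plus strand at chr10:31629528-31629827 for Havcr1, and on the minus strand at chr3:36081731-36082030 for Lcn2, chr3:109699375-109699674 for Cd44 and chr2:206742734-206743033 for Vcam1.
Havcr1: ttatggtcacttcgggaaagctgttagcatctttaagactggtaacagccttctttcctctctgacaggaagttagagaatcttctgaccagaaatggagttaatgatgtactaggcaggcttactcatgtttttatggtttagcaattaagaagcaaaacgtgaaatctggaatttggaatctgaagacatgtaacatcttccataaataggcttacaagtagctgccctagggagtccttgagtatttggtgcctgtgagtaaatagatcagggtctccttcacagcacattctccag
Lcn2: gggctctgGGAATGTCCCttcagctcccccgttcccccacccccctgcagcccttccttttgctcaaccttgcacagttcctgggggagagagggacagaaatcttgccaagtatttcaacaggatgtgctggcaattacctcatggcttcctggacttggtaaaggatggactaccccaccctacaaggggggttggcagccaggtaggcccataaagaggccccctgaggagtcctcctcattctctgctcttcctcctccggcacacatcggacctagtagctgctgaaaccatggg
Cd44: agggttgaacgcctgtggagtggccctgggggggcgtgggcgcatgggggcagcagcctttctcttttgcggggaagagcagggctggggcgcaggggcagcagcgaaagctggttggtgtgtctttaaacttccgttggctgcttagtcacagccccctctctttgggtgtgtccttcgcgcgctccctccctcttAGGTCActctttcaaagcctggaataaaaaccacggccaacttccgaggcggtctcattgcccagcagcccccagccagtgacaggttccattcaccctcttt
Vcam1: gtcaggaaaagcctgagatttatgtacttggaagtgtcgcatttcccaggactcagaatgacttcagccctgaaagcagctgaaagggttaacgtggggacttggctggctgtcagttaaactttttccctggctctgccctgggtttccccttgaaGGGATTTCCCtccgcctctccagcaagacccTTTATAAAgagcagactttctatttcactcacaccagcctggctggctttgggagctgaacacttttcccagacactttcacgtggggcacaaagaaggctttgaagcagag

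An NF-kB match, of the factor that drives many inflammatory genes, stood in the windows of Lcn2, 242 bases before the start, and Vcam1, 93 bases before it. Of 33469 RefSeq windows of the same length 7.51% held one. Lcn2 was at -0.49 and Vcam1 at -0.10. The Cd44 window held the half-site AGGTCA 53 bases before the start, as 16.2% of windows did. A Prom1 window, not printed here, held it too, on the opposite strand after the start. Prom1 was at -0.05. The Vcam1 window held overlapping TATA matches on both strands, as 14.2% held at least 1. The Havcr1 window held no match to any of the 7 motifs. A match is a stretch of letters and was not shown to be bound in these kidneys.

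Receptors and ligands of the markers lay on both sides of 0. Of 21 receptor and ligand genes 16 had a probe and 10 were measured, with a median of -0.02, 5 of them below 0, 1 called lower and 0 higher. Their median was -0.15 with a gene's probes averaged and 0.06 in the unscaled signals, and whether they differ from the markers was not tested. The alpha4 and beta3 integrin genes Itga4 and Itgb3, which encode receptors of VCAM1 and osteopontin, and the hyaluronan synthases Has1, Has2 and Has3, which make the ligand of CD44, were not well above background on either array. Itgb1, the partner chain of alpha4, was at 0.04 and Itgb5, another osteopontin receptor chain, at 0.08. Lrp2, which encodes megalin, the proximal tubule receptor that takes up filtered lipocalin and clusterin, had 57100 on the pioglitazone array and 52900 on the vehicle array (0.03). Slc22a17, a second lipocalin receptor, was at -0.05. Itgam, the alpha chain of a leukocyte integrin, was the gene called lower, at -0.77, from dim spots of 15.1 on the pioglitazone array and 24.3 on the vehicle array. Ltbp1, which holds latent TGF-beta for integrins such as alphaV beta6 to act on, was at -0.38 and the matrix protein gene Fn1 at -0.25.

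Proteases that shed or cut these proteins had a median of -0.21 over 6 measured genes of 8, with 1 called lower. Mmp14, a membrane protease that can shed CD44, had 933 on the pioglitazone array and 1350 on the vehicle array (-0.62). Mmp2 was at -0.25, Mmp7 at -0.24 and Adam17, a sheddase of VCAM1, at 0.08. Genes listed as cytoskeletal partners of CD44 and VCAM1 had a median of 0.04 over 5 genes, which is the value of Vil1 (villin). The others were Rdx (radixin) at -0.15, Ezr (ezrin) at 0.10, Nf2 (merlin) at 0.08 and Msn (moesin) at 0.03.

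Signalling genes upstream of the markers and targets of YAP showed small values. Their list, of NF-kB, STAT, YAP and growth factor receptor genes with Hif1a and Foxm1, had a median of -0.12 over 15 measured genes of 20. Of the 15, 11 were below 0 and 0 were called. Nfkb1, Relb, Yap1, Tead1 and Tead4 had no probe. Its largest differences were those of Socs3, a STAT target that limits cytokine signalling (-0.31), Egfr (-0.29) and the YAP target Ankrd1 (-0.19). Transcription factors of tubule identity and repair had a median of -0.01 over 10 of 13 genes, 0 of them called. Runx1, which marks injured tubules and leukocytes, was at -0.55, Klf6, an early injury factor, at -0.41, and Hnf4a, the factor of mature proximal tubule, at 0.29.

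Other injury genes were mostly below 0 too, with smaller medians. Of 14 further urinary markers 12 were measured, with a median of -0.19, 8 below 0 and 0 called. Cp, which encodes ceruloplasmin, was at -0.42 and the chemokine gene Ccl2 at -0.36, while Tff3, a trefoil peptide of tubule epithelium, had 3620 on the pioglitazone array and 2480 on the vehicle array (0.46). Of 36 further genes of injured and repairing tubules 32 were measured, with a median of -0.20, 25 below 0, 0 called lower and 1 higher. The matrix gene Tnc was at -0.57 and the calcium-binding protein gene S100a6 at -0.56. The gene called higher was Plaur, the urokinase receptor, with 99.2 on the pioglitazone array and 50.3 on the vehicle array (0.90), read from dim spots.

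Markers of other cell types also differed between the arrays. Macrophages also make osteopontin and CD44. All 13 measured macrophage markers of 15 were below 0, with a median of -0.35 and 3 called lower, and their summed unscaled signal was 30595.1 on the pioglitazone array and 34404.3 on the vehicle array. Trem2 was at -0.66 and Gpnmb at -0.61, while Cd163 and Mpeg1 were not well above background. Of 10 fibroblast and pericyte markers 8 were measured, all below 0, with a median of -0.31, Col3a1 at -0.63 called lower and a summed signal of 18202.6 on the pioglitazone array and 21834.5 on the vehicle array. Proximal tubule markers had a median of 0.14 over 14 of 15 genes, with Slc22a8 at 0.25, Cubn at 0.23 and Slc7a13 at 0.20. Of the 14, 13 were above 0, where 5886 of all 10480 measured genes were. All were within 2 technical errors and 0 were called. Their summed signal was 512143.5 on the pioglitazone array and 444261.5 on the vehicle array. All summed signals of these lists are unscaled. Over all measured genes the sum was also larger on the pioglitazone array, 33561972.4 against 30746859.4 on the vehicle array. Further marker lists had medians of -0.30 for lymphocytes (7 of 10 genes measured), -0.46 for urothelium (6 of 9), -1.18 for adipocytes (5 of 8), 0.02 for the thick ascending limb (5 of 6) and 0.12 for the distal nephron and collecting duct (11 of 12). With normexp the lymphocyte median was -0.15 and the urothelial median -0.23, and without detrending the lymphocyte median was -0.19. All 5 measured adipocyte markers were below 0 and 3 were called lower, with a summed signal of 1754.8 on the pioglitazone array and 2797.0 on the vehicle array. Adipoq and Fabp4, which were not called, lay near 0, at -0.10 and -0.07. Without the middle grid rows (bands 6 and 7 of 10) the adipocyte median was -0.94. All 6 measured urothelial markers were below 0 and 3 were called lower, with a summed signal of 1940.8 on the pioglitazone array and 2326.3 on the vehicle array. Of the called genes, Tp63 and Psca were read from dim spots, 24.9 and 23.6 on the pioglitazone array and 36.2 and 33.7 on the vehicle array. The other called urothelial gene had a signal above 100 on both arrays. Of the 7 lymphocyte markers 1 was called lower, and the summed signal was 1279.2 on the pioglitazone array and 1486.0 on the vehicle array. The part of these cell types in the differences of the injury genes was not tested.

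**Figure D5:**
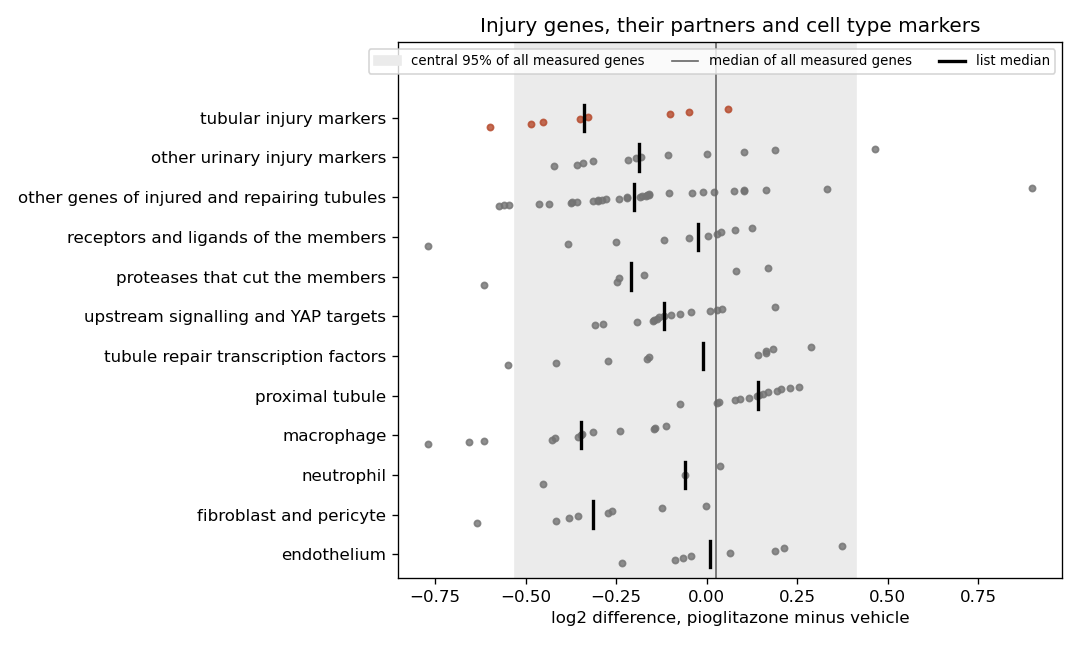
Difference of each measured gene on the log2 scale, pioglitazone minus vehicle, for the injury markers (top row), related gene lists and cell type markers; each point is a gene, the short black bars are list medians, the grey band is the central 95% of all measured genes and the grey line is their median. The medians of the injury markers (-0.34), macrophage (-0.35) and fibroblast (-0.31) rows lie left of the line, and that of the proximal tubule row (0.14) lies right of it.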

How the data were processed

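Agilent Feature Extraction 10.7.3.1 made the deposited scanner files, per the submitters' processing notes and the file headers: background was subtracted and spatial trends were removed array by array, and the values are spot intensity on a linear scale. The authors' value table holds the identical intensity for all 45018 features of both arrays, with column medians of 47.7 for pioglitazone and 46.75 for vehicle, so no log scale or centring was added. Of 43379 spots that are not controls, 31728 (73.1%) were well above background on the pioglitazone array and 31127 (71.8%) on the vehicle array, and 0 were saturated.

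From there, 149 spots flagged as outliers on 1 array or both were left out (0 of the 19 spots of the injury genes), values were put on a log2 scale less each array's 75th percentile, and spots of a probe were averaged. Accessions were matched without versions to a RefSeq gene table of GRCr8, which named 16959 of 40998 probes (41.4%). The brightest probe stood for its gene, which counted as measured when all spots of that probe were well above background on both arrays. Named genes were all members and, for most lists, up to 3 with the largest difference plus receptors and partners. Of the adipocyte and urothelial markers not all of the largest are named, and Adipoq and Fabp4 are named as those not called. The files' annotation is rn4, and no coordinate from it is given. The members and lists were chosen with earlier results of these data known. One marker list is not reported here. The calculation was tested on simulated data. Tools were Python 3.11.15, pandas 2.3.3, numpy 2.4.6 and, for normexp, limma 3.58.1.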

Additional observations from a re-analysis of the deposited data

How the results depend on the processing

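Over 11 alternative settings the median of the injury genes lay between -0.35 and -0.26, against -0.34 as reported, with the same sign in all 11. Several settings had little to change in these genes, which have no flagged spot. With flagged spots kept, dim probes kept or probes averaged, the median stayed at -0.34. Median scaling and no scaling shift every gene by the same amount. Lower calls among the injury genes numbered 1 as reported, 0 with median scaling and 0 with no scaling, where Havcr1 was at -0.54 and -0.52, and 3 at the smaller planned fold limit, which lies under 2 technical errors, where Lcn2 and Cd44 joined it. In normexp correction Havcr1 was at -0.59, on the edge of the 1.5-fold limit. Over all measured genes, lower and higher calls were 184 and 79 as reported, 117 and 130 with no scaling, 48 and 10 with normexp, and 403 and 185 at the smaller limit. No scaling leaves the shift of 0.08 between the arrays in every gene, and a smaller limit can only add calls. Normexp was run with an offset of 50 added on both arrays, which draws the differences of dim spots toward 0. How much of its drop in calls came from that offset was not tested. The unscaled signals moved the median of all genes to 0.11 and those of the other urinary injury markers to -0.11, the further injury and repair genes to -0.12, the proteases to -0.13, the upstream signalling genes to -0.04, the repair transcription factors to 0.07 and the proximal tubule markers to 0.22. Without the middle grid rows (bands 6 and 7 of 10), which hold 2 of the 10 Spp1 spots and no other spot of these genes, the median was -0.34. Normexp on median signals, the signals without detrending and the removal of those rows were chosen after seeing the data. Normexp on mean signals and naming by gene name were not run, because the columns used here hold neither. No paired analysis was possible because there is 1 array per group.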
